A study of Mus musculus with 6 samples.

Results

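The copies described here are single genomic insertions of mouse ERVK retroviruses other than the intracisternal A particles (element names starting with IAP), the early transposons (names containing ETn) and the RLTR13 elements. They were picked by name: every entry of the authors' deposited table of single transposon copies whose family is ERVK, less those 3 kinds of element. This choice was made with earlier results of these data known. The rule gave 1823 of the 26255 copies in that table, from 195 elements, and the same rule on element names gave 214 of the 938 rows of the deposited table of subfamilies, in which all reads of an element are summed. RNA came from E14 mouse embryonic stem cells, an established line, and total RNA was sequenced from 3 samples with a knock-out of Dot1l made by CRISPR/Cas9 (Dot1l KO) and 3 wild-type (WT) samples. Both genotypes were grown in serum with LIF on gelatin, and all 6 samples are labelled day 14; the labels do not say what the day counts from. Nothing in the labels says whether the 3 KO samples are separate clones or cultures, so the p-values cover the spread among these 6 libraries, which may be technical. Dot1l encodes the histone H3 lysine 79 methyltransferase, and the comparison asks which ERVK copies differ in RNA level when it is knocked out.

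ERVK elements are endogenous retroviruses related to betaretroviruses. A full insertion has an internal stretch with gag, pro and pol reading frames (element names ending in -int) between long terminal repeats (LTRs), which carry the promoter; solitary LTRs are what remains after the repeats recombine. In embryonic stem cells many of these insertions are kept silent by KRAB zinc finger proteins, which recruit the co-repressor Trim28 and the H3K9 methyltransferase Setdb1, and MMERVK10C is among the known targets of that pathway.

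The authors' deposited tables hold, for each entry, the mean normalized count over all libraries, a log2 fold change and its error (SE), and a Wald p with its adjustment; values per sample were not analysed here, so no level per sample and no depth per library can be given. A positive fold change was taken to mean a higher level in Dot1l KO, since the MERVL retrovirus is described elsewhere as repressed by Dot1l in such cells; the files do not state the direction, and all directions below would turn with it. In the authors' deposited table of genes, Dot1l itself (chromosome 10, 80755206 to 80795461, GRCm38) had a mean count of 5761 and a log2 fold change of -0.16 ± 0.25 (SE; adjusted p = 0.845). Its RNA level therefore neither checks the genotype labels nor settles the direction. The level of each genotype was computed from the mean and the fold change under equal group sizes, and is called the implied level. Levels are given in normalized counts per library, not per length, so an order of levels between copies or elements is one of counts only. The copy names carry a number but no coordinates, and no sequence of a copy is printed. Copies of an element may share reads, so they were not treated as independent. RLTR10-int_dup2045 and RLTR10-int_dup2046 have identical values in the authors' deposited table, the only such pair among the members.

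Markers of the cells were measured in the same libraries. None of 8 embryonic stem cell genes passed the threshold, and their summed implied level was 213089 in KO against 220574 in WT. Genes of other cell states did pass, beside 6.58% of all genes: 4 of 6 2-cell-like genes rose (summed level 1560 against 24.3), as did 4 of 5 primitive endoderm genes (817 against 151), 3 of 4 fibroblast genes in the table (2166 against 993) and 1 of 4 trophoblast genes (275 against 165). Of 3 macrophage or blood genes only Cd68 is in the authors' deposited table, at 568 in KO and 981 in WT, with a log2 fold change of -0.79 ± 0.38 (adjusted p = 0.264). The part of these cells in the results that follow was not tested, and in bulk RNA more cells of a type and more RNA per cell cannot be told apart.

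Among the 1813 member copies with a p, the authors' deposited table calls 15 higher and 3 lower in Dot1l KO (adjusted p under 0.05). That is 0.827% higher and 0.165% lower, beside 0.878% and 0.229% over all copies of that table (1.11% in either direction); the share called was thus near the background. At an unadjusted p under 0.05, 73 of these members were higher and 48 lower. Over all copies the shares were 2.88% and 1.82%, both smaller than those of the members. That difference was not tested. The 18 called copies came from 7 elements, and 188 elements had none. RLTR45-int supplied 8 of the 15 higher copies. ERVB4_2-I_MM-int, MMERVK10C-int and RMER13A1 supplied 2 each and MMERVK10D3_I-int supplied 1. The 3 lower copies were LTRs of ERVB elements, 2 of ERVB7_1-LTR_MM and 1 of ERVB4_1C-LTR_Mm.

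Fold changes over the members spread on both sides of 0. There were 1006 positive and 817 negative values, with a median log2 fold change of 0.11 (quartiles -0.49 and 0.66), beside 0.02 over all copies (quartiles -0.54 and 0.56). Most members were covered thinly: the median mean count was 8.67, with a range of 3.73 to 3046, and the median standard error of the log2 fold change was 1.07. The more abundant copies had a negative median. Among the 101 members with a mean count of at least 50 the median was -0.29, with 0 higher and 1 lower by the authors' DESeq2 test (1 and 11 before adjustment); over all copies of that level the median was -0.31, with 14 higher and 30 lower. The share called was 1.10% of the 91 such members with a p, and 4.45% of the 988 such copies in the table. Of the 101 members, 28 were copies of 1 element, ERVB7_1-LTR_MM. Likewise the summed implied level of the members was 33479 in KO and 44657 in WT, a log2 ratio of -0.42, beside -0.24 over all copies, so the median and the sum differ in sign. The sum rests on few elements, which were left out after their values were seen. Without ERVB7_1-LTR_MM the log2 ratio was -0.15 (27925 against 30890), and without RLTR19-int as well it was -0.0088 (25706 against 25863). The 10 members without a p, all negative and 9 of them ERVB7_1-LTR_MM copies, held 937 of the KO and 5195 of the WT sum.

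**Figure D1:**
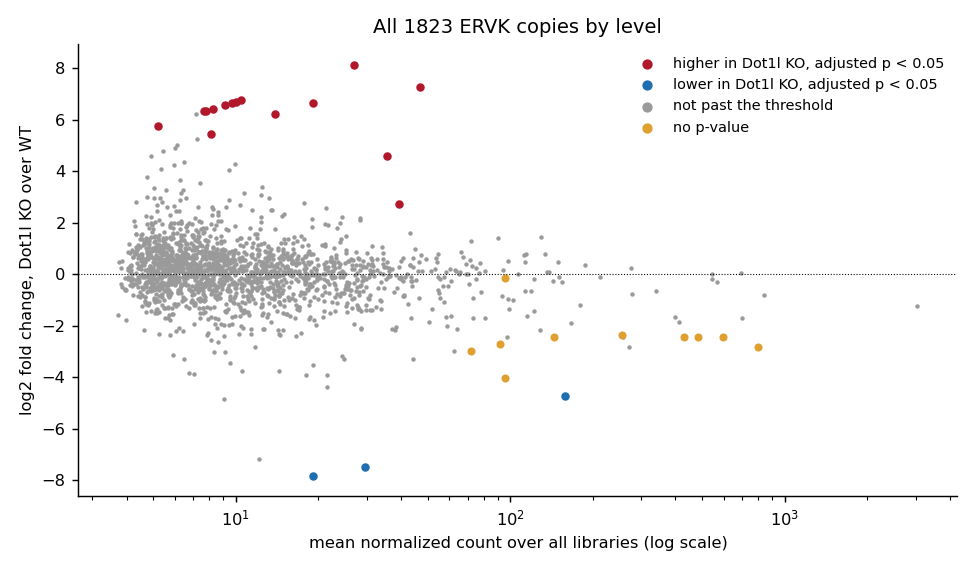
Each point is 1 of the 1823 member copies, with the authors' mean normalized count on the x axis (log scale) and their log2 fold change, Dot1l KO over WT, on the y axis; red marks higher and blue lower copies with adjusted p under 0.05, and orange marks copies without a p. The 15 red points lie below a mean count of 50, and 9 of the 10 orange points are ERVB7_1-LTR_MM copies, all with negative values.

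Most copies that rose had few or no reads in WT. For 9 of the 15 the implied WT level corresponds to no reads in any WT library, and 13 had an implied WT level under 1 normalized count per library. The lowest implied levels fall in steps of about 1 read over the 3 libraries of a group, which is how levels of 0, 1 or 2 reads were recognised; this is an inference from the values. A fold against a group without reads is therefore given only as a bound, replacing the empty group by 3 reads over its libraries, or 1 normalized count in each. Such copies could enter the table only through their KO reads. Over all members, 11 had no WT reads and 2 no KO reads by this reading.

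**Figure D2:**
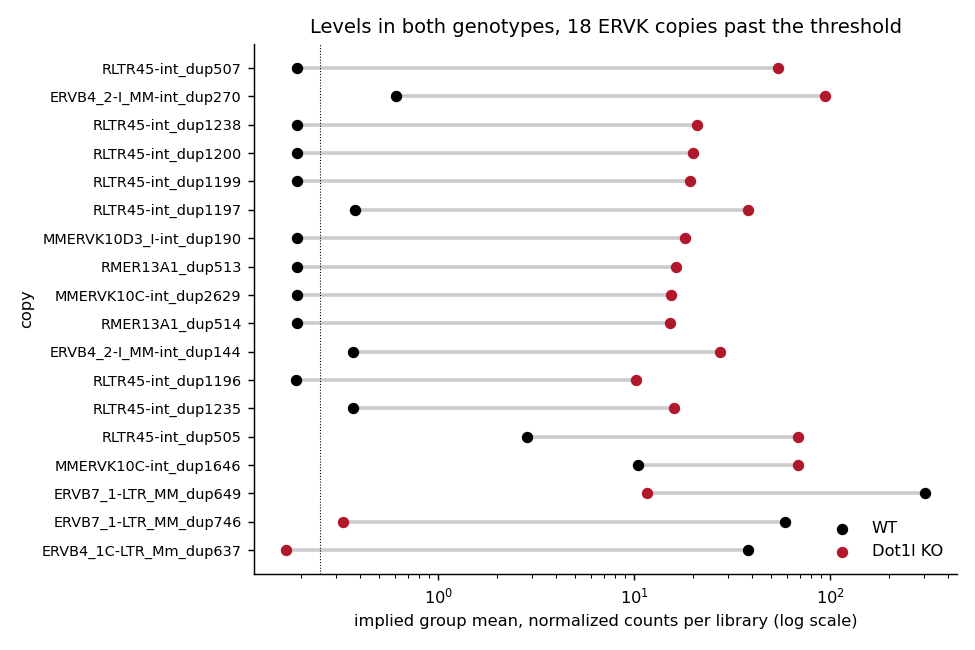
Implied mean level in WT (black) and Dot1l KO (red) of the 18 member copies past the threshold, in normalized counts per library on a log axis; a grey line joins the levels of a copy, and levels left of the dotted line at 0.25 are read as no reads. The lowest 3 rows are the copies that fell, and 9 of the other 15 have a WT level left of the line.

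Internal stretches and LTRs were called at different shares, but 8 of the 13 internal calls were in 1 element, RLTR45-int. Over all copies of the table the share called was 1.11%. Of 364 internal copies 13 were higher and 0 lower by the authors' DESeq2 test (3.57% called; 38 and 7 at an unadjusted p under 0.05), with a median log2 fold change of 0.29. Of 1449 LTR copies with a p, 2 were higher and 3 lower (0.345% called; 35 and 41 before adjustment), with a median of 0.07 over all 1459. Without RLTR45-int, 5 of 343 internal copies were higher (1.46%, beside 0.878% higher over all copies) with a median of 0.24. The difference between the kinds of copy was not tested, since copies share elements and reads.

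RLTR45-int is the internal stretch of an ERVK element whose LTR is named RLTR45. In the authors' deposited table of subfamilies it rose, with a mean count of 486 and a log2 fold change of 1.40 ± 0.39 (SE; 95% interval 0.64 to 2.17; adjusted p = 0.0453), from an implied 266.8 in WT to 704.8 in KO. It was the only one of the 214 subfamilies past the threshold (0.467%), beside 0.748% over all subfamilies (0.641% higher and 0.107% lower), and it is lost at an adjusted p under 0.01. The copy table lists 21 copies of it, whose mean counts add up to 51.3% of its subfamily count; the 2 tables were normalized separately. In the authors' deposited table of copies, 8 of the 21 were higher (38.1%) and 0 lower, beside 0.878% and 0.229% over all copies. Before adjustment 10 were higher and 0 lower, beside 2.88% and 1.82%. Fold changes were positive in 19 of the 21, with a median of 2.06. They ran from -1.20 to 8.14, the latter in a copy without WT reads, for which only a bound holds. The summed implied level was 402 in KO against 96.3 in WT. Of that sum the 8 called copies held 245.8 in KO and 4.52 in WT, and the other 13 held 156.6 and 91.7. The split follows the calls themselves, so it shows only where the sum lies. The element holds only 0.638% of the counts of all member copies.

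RLTR45-int_dup505 was the most counted copy, with an implied level of 68.2 in KO and 2.83 in WT and a log2 fold change of 4.59 ± 1.05 (SE; adjusted p = 0.00291) in the authors' deposited table. RLTR45-int_dup507 had 53.8 in KO and no reads in WT, at least 53.8-fold higher (adjusted p = 0.000241), the smallest p of the element. RLTR45-int_dup1197 had 37.9 in KO and about 1 read over the WT group, a ratio of 114 (exact 95% interval 20.1 to 4542, counting error only; adjusted p = 0.00370). These 3 copies were low in WT and high in KO. RLTR45-int_dup1199, RLTR45-int_dup1200 and RLTR45-int_dup1238 had 19.2, 19.8 and 20.7 in KO and no reads in WT, and are at least 19.2-fold, 19.8-fold and 20.7-fold higher; the authors' deposited table gives them adjusted p-values of 0.00629, 0.00360 and 0.00630. RLTR45-int_dup1235 had 15.9 in KO and about 1 read over the WT group, a ratio of 48 (exact 95% interval 8.21 to 1935, counting error only; adjusted p = 0.0292). RLTR45-int_dup1196, with 10.2 in KO and no reads in WT, is at least 10.2-fold higher (adjusted p = 0.0351).

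The 8 called copies fall in 3 runs of neighbouring numbers. Runs were formed from copies of an element whose numbers lie at most 3 apart; the sources used here do not say whether neighbouring numbers mean neighbouring places in the genome or pieces of 1 provirus. The run from 1196 to 1202 has 5 listed copies, of which 4 rose, and its summed level was 104.9 in KO against 2.02 in WT. Its remaining copy, RLTR45-int_dup1202, stood at 4.06 ± 1.38 in the authors' deposited table (adjusted p = 0.186). The run from 504 to 508 has 4 copies, of which 2 rose; RLTR45-int_dup508 had 4.80 ± 1.63 (adjusted p = 0.184) and RLTR45-int_dup504 had -0.21 ± 1.24. Both listed copies of the run from 1235 to 1238 rose. These runs are described because they hold called copies, so their totals are no comparison with the rest of the element. RLTR45-int_dup1316 had the lowest log2 fold change of the element, at 16.7 in KO and 38.5 in WT (-1.20 ± 1.06 in the authors' deposited table).

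**Figure D3:**
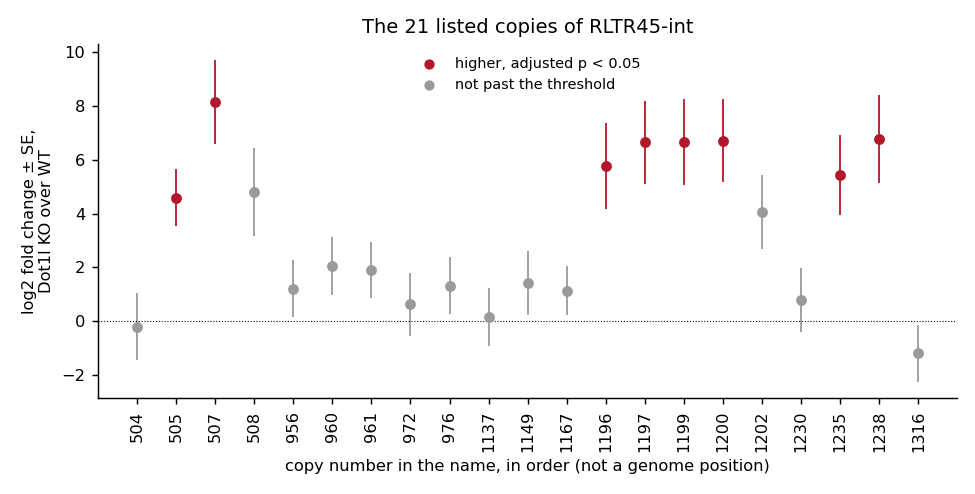
Log2 fold change, Dot1l KO over WT, with its standard error, as the authors deposited it, for the 21 listed copies of RLTR45-int in the order of the number in their name (x axis, not a genome position); red marks the 8 copies with an adjusted p under 0.05. The red points fall in the runs 504 to 508, 1196 to 1202 and 1235 to 1238, while the copies from 956 to 1167 lie between 0.15 and 2.06.

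The LTR of the same name did not pass. RLTR45 has 11 listed copies, with 0 called by the authors' DESeq2 test, 1 higher and 1 lower before adjustment and a median log2 fold change of -0.24. Its subfamily value was -0.24 ± 0.37 (SE; 95% interval -0.97 to 0.48) in the authors' deposited table.

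MMERVK10C-int is the internal stretch of a provirus that Trim28 and Setdb1 are known to silence. Of its 48 copies, 2 rose (4.17%) and 0 fell in the authors' deposited table, beside 0.878% and 0.229% over all copies. Before adjustment 7 were higher and 0 lower, beside 2.88% and 1.82%. Log2 fold changes ran from -2.34 to 6.35, the latter in a copy without WT reads, for which only a bound holds. There were 33 positive values, and the median of the element was 0.32. Its subfamily value was 0.24 ± 0.22 (SE; 95% interval -0.20 to 0.68; adjusted p = 0.996), with 63.8% of its count in the listed copies, and the copies' summed level was 828 in KO against 713 in WT. MMERVK10C-int_dup1646 rose from 10.4 in WT to 68.4 in KO, a log2 fold change of 2.72 ± 0.78 (adjusted p = 0.0477), which became 0.0508 after centring the table on its median. MMERVK10C-int_dup2629 had 15.4 in KO and no reads in WT, at least 15.4-fold higher (adjusted p = 0.0125). MMERVK10C-int_dup2242 lay just outside the threshold, at 5.25 ± 1.52 in the authors' deposited table (adjusted p = 0.0513). The most counted copy, MMERVK10C-int_dup2821, had 68.0 in KO and 137.1 in WT, with a log2 fold change of -1.01 ± 0.76 (adjusted p = 1.00). The called copies of this element thus stood beside many whose values scattered about 0.

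MMERVK10D3_I-int has 5 listed copies. MMERVK10D3_I-int_dup190 had 18.1 in KO and no reads in WT, at least 18.1-fold higher (the authors' deposited table, adjusted p = 0.00367). The related MMERVK9 elements had no called copy: MMERVK9C_I-int had 36 copies with a median log2 fold change of -0.12, and MMERVK9E_I-int had 27 with a median of 0.13. MMERVK9C_I-int_dup1400 had the smallest p of its element, at -3.86 ± 1.29 (adjusted p = 0.172), and MMERVK9E_I-int_dup62 that of the other, at 3.16 ± 1.10 (adjusted p = 0.225).

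RLTR10 elements include RLTR10C, the LTR that flanks MMERVK10C, and RLTR10B, an LTR restrained by Trim33 in the testis. None of the 92 copies with names starting RLTR10 passed the authors' DESeq2 test, beside 1.11% of all copies. At an unadjusted p under 0.05, 7 were higher and 4 lower, beside 2.88% and 1.82% of all copies. The median log2 fold change was 0.16. RLTR10-int had 38 copies, with 26 positive values, a median of 0.51 and a subfamily value of 0.33 ± 0.21 (SE; 95% interval -0.07 to 0.74) in the authors' deposited table. RLTR10-int_dup2596 had 5.03 ± 1.52 (adjusted p = 0.0771) and RLTR10-int_dup681 had 3.38 ± 1.03 (adjusted p = 0.0778). RLTR10-int_dup682, RLTR10-int_dup683 and RLTR10-int_dup684 followed it with log2 fold changes of up to 2.19. The run from 678 to 684, picked after its values were seen, had a summed level of 128.8 in KO against 31.2 in WT. In it 4 of 5 copies were positive, and the lowest stood at -0.51. Every other run of this element lay nearer to even, and the run from 2306 to 2307 was lower in KO, at 15.2 against 19.5. RLTR10-int_dup108, the most counted copy, had 0.43 ± 0.94.

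The LTRs of the RLTR10 group did not share a direction. RLTR10D lay lowest: 7 of its 10 copies were negative, with a median of -1.43, and its subfamily value was -1.25 ± 0.44 (SE; 95% interval -2.11 to -0.39; adjusted p = 0.335) in the authors' deposited table. Its copies numbered 326 to 336 lay between -2.38 and -1.40. All 4 RLTR10E copies were negative (median -0.95). RLTR10 had 19 copies with a median of -0.00, and RLTR10C had 14 with a median of 0.05 and a subfamily value of -0.21 ± 0.32. RLTR10A had 2 copies, at 0.34 and -1.95. Both RLTR10F copies were positive: RLTR10F_dup152 had 169.3 in KO and 99.1 in WT (0.77 ± 0.84), and RLTR10F_dup150 had 2.06 ± 1.19. RLTR10B, RLTR10B2 and RLTR10D2 had 1 listed copy each, at 1.55, 1.53 and 0.35; for RLTR10B and RLTR10B2 these copies hold only 10.7% and 9.62% of the subfamily counts in tables that were normalized separately. The RLTR10B subfamily value was -0.53 ± 0.47 in the authors' deposited table.

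Among ERVB elements, calls in both directions were found. ERVB4_2-I_MM-int, an internal stretch, had 6 listed copies with a median log2 fold change of 4.45, or 3.25 with copies without WT reads set at their bound. ERVB4_2-I_MM-int_dup270 rose from about 2 reads over the WT group to 93.3 normalized counts per library in KO. In levels rounded to whole reads this is a ratio of 140 (exact 95% interval 38.4 to 1162, counting error only). The log2 fold change, which is not rounded in this way, was 7.27 ± 1.36 (adjusted p = 0.000185) in the authors' deposited table. ERVB4_2-I_MM-int_dup144 rose from about 1 read over the group to 27.4, a ratio of 82 (exact 95% interval 14.3 to 3278, counting error only; adjusted p = 0.0115). ERVB4_2-I_MM-int_dup145 had 14.1 in KO and no reads in WT, at least 14.1-fold higher, but an unadjusted p of 0.112 and a standard error of 3.91 in the authors' deposited table. ERVB4_2-I_MM-int_dup269 had 2.68 ± 1.24 (adjusted p = 0.825), and ERVB4_2-I_MM-int_dup19 and ERVB4_2-I_MM-int_dup20 had -0.27 and -0.25. Of the 6 copies, only 144 and 270 passed, beside 0.878% of all copies called higher. Copies 19 and 20 stood at 19.6 each in KO and 23.6 and 23.4 in WT. The subfamily value was 1.53 ± 0.54 (SE; 95% interval 0.46 to 2.59; adjusted p = 0.344).

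ERVB7_1-LTR_MM is an LTR and holds 24.7% of the counts of all member copies. Of its 46 copies with a p, in the authors' deposited table, 2 fell (4.35%) and 0 rose, beside 0.229% and 0.878% over all copies. Before adjustment 14 were lower and 1 higher, beside 1.82% and 2.88%. Of all 55 copies, 41 were negative, the median log2 fold change was -1.68, and the summed level was 5554 in KO against 13767 in WT. ERVB7_1-LTR_MM_dup649 fell from 305.4 in WT to 11.6 in KO, with a log2 fold change of -4.72 ± 0.99 (adjusted p = 0.000738). ERVB7_1-LTR_MM_dup746 fell from 58.8 in WT to about 1 read over the KO group, 176 reads to 1 (exact 95% interval of the ratio 31.2 to 6991, counting error only; adjusted p = 0.00446). ERVB7_1-LTR_MM_dup648, with the number next to the first of these, stood at 699.8 in KO and 680.4 in WT (0.04 ± 0.82), and the most counted copy, ERVB7_1-LTR_MM_dup625, had -0.81 ± 0.94. The copies of this LTR therefore varied widely among themselves, also next to each other in number.

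The ERVB7_1-LTR_MM subfamily lay just outside the threshold, at -1.48 ± 0.42 in the authors' deposited table (adjusted p = 0.0530). A further 9 copies of it have a fold change but no p, which DESeq2 leaves out where the count of a single sample is extreme; whether that holds here cannot be seen without values per sample. Those 9 range from -2.98 to -0.13, with a summed level of 926 in KO against 5014 in WT. They hold more than 1 in 3 of the WT counts of the element, and without them its summed level was 4628 in KO against 8752 in WT and its median -1.15.

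ERVB4_1C-LTR_Mm had 12 copies, 10 of them negative, with a median of -1.80 and a summed level of 201 in KO against 826 in WT. ERVB4_1C-LTR_Mm_dup637 had 38.0 in WT and no reads in KO, at least 38.0-fold lower (adjusted p = 0.00133 in the authors' deposited table). ERVB4_1C-LTR_Mm_dup617, with a mean count of 95.9 and a log2 fold change of -4.03, has no p. The subfamily value was -2.07 ± 0.67 (adjusted p = 0.168).

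**Figure D4:**
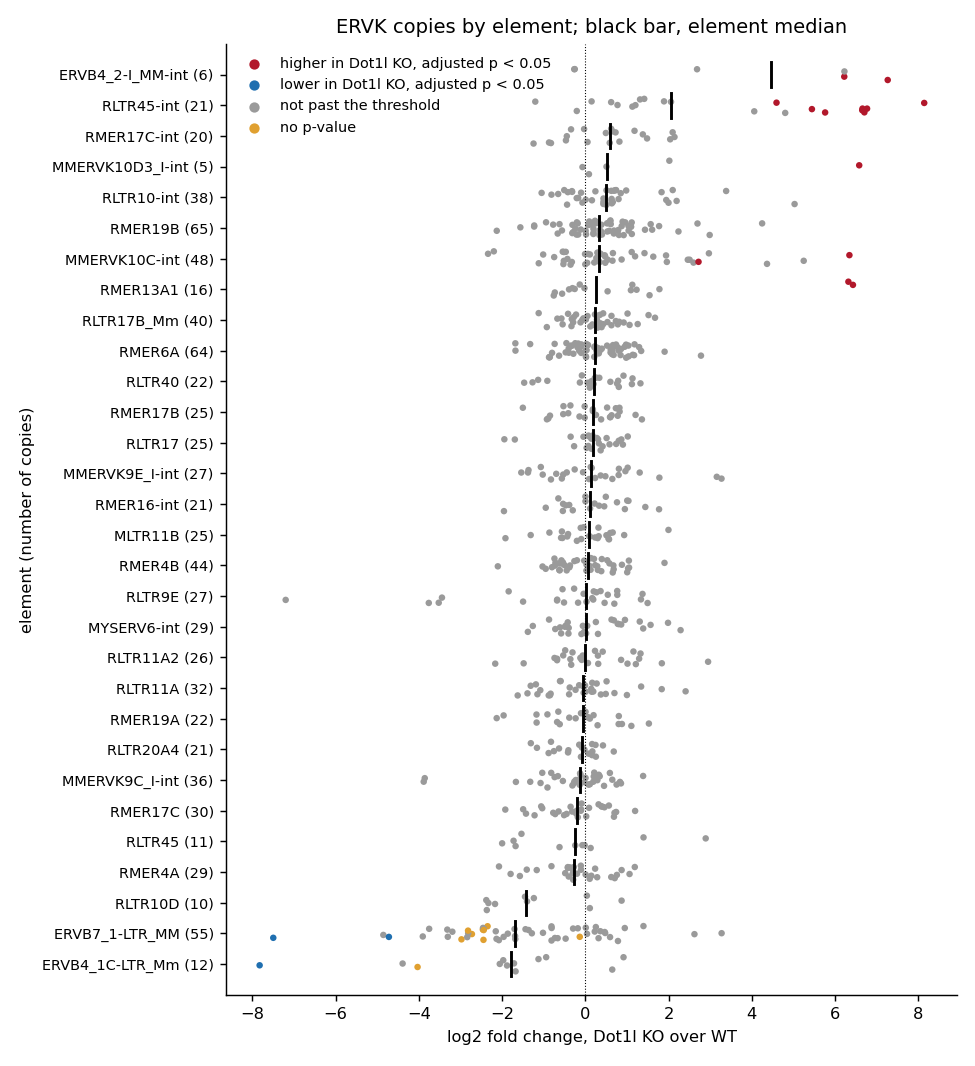
Each point is the authors' log2 fold change, Dot1l KO over WT, of 1 copy, by element. Shown are the elements with at least 20 copies with a p and 6 smaller elements. The smaller ones are RLTR45, the LTR named like RLTR45-int, and others with called or shifted copies. The number of copies is in parentheses and a black bar marks the median. Medians run from -1.80 in ERVB4_1C-LTR_Mm to 4.45 in ERVB4_2-I_MM-int, and most elements centre near 0.

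RMER elements are older, mostly solitary LTRs and the most numerous members, with 589 copies. By the authors' deposited table, 2 rose and 0 fell (0.34% called), below the 1.11% over all copies. Before adjustment 21 were higher and 6 lower, beside 2.88% and 1.82% over all copies. Of the 589, 352 were positive and the median was 0.17. Both rises were in RMER13A1 and have adjacent numbers. RMER13A1_dup513 had 16.3 in KO and no reads in WT, at least 16.3-fold higher (adjusted p = 0.00502), and RMER13A1_dup514 had 15.1 in KO and no reads in WT, at least 15.1-fold higher (adjusted p = 0.00684). The other RMER13A1 copies lay between -0.76 and 1.78. RMER19B had 65 copies, 47 of them positive, with a median of 0.34 and 0 called by the authors' DESeq2 test (5 higher and 0 lower before adjustment); its most counted copy, RMER19B_dup728, had -0.77 ± 0.77 and RMER19B_dup5548 had 4.25 ± 1.50 (adjusted p = 0.237). RMER6A had 64 copies with a median of 0.22; RMER6A_dup1225 had 2.78 ± 1.08 (adjusted p = 0.427). RMER17C-int had the highest RMER median among elements with at least 20 copies, 0.60 over 20 copies, and RMER4A the lowest, -0.28 over 29. RMER19A_dup802, both the most counted copy of its element and the one with the smallest p, stood at 23.9 in KO and 104.5 in WT (-2.13 ± 0.79; adjusted p = 0.342).

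RLTR9 LTRs are known to be bound by pluripotency factors in embryonic stem cells. None of 59 copies passed the authors' DESeq2 test, and the median was -0.27. Before adjustment 0 were higher and 5 lower, beside 2.88% and 1.82% of all copies. RLTR9E, with 27 copies and a median of 0.03, held 3 of those 5; RLTR9E_dup792 stood at 3.06 in KO and 35.2 in WT (-3.52 ± 1.08; adjusted p = 0.0813 in the authors' deposited table), while the most counted copy, RLTR9E_dup982, stood at 172.6 and 125.3 (0.46 ± 0.84).

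Other RLTR elements had no called copy by the authors' DESeq2 test. RLTR17 elements had 76 copies (1 higher and 0 lower before adjustment), 54 of them positive, with a median of 0.28. RLTR20 elements had 103 copies (1 and 1) with a median of 0.07. The remaining RLTR names had 409 copies (8 and 6) with a median of 0.11. Within that group, RLTR19-int_dup234 had a mean count of 3046, which is 84.1% of the listed counts of its element, and a log2 fold change of -1.23 ± 0.83 in the authors' deposited table. The subfamily value of RLTR19-int, -1.30 ± 0.58 (adjusted p = 0.649), is thus largely that of 1 copy. The BGLII group (43 copies, median -0.16) and the MYSERV group (44 copies, median 0.03) had 0 called copies as well, with 2 higher and 0 lower, and 1 and 1, before adjustment. The same test called none of the 8 copies of MERVK26-int, although 3 were higher and 2 lower before adjustment. Over all copies the shares before adjustment were 2.88% higher and 1.82% lower.

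Over the 24 elements with at least 20 copies with a p, 17 medians were positive and 7 negative. Subfamily values and copy medians are read from tables that were normalized separately and count many of the same reads, so their likeness is a description. Among the 214 subfamilies the median log2 fold change was -0.06, beside -0.05 over all subfamilies, and 4 were higher and 7 lower at an unadjusted p under 0.05; over all subfamilies the shares were 1.92% and 3.31%.

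**Figure D5:**
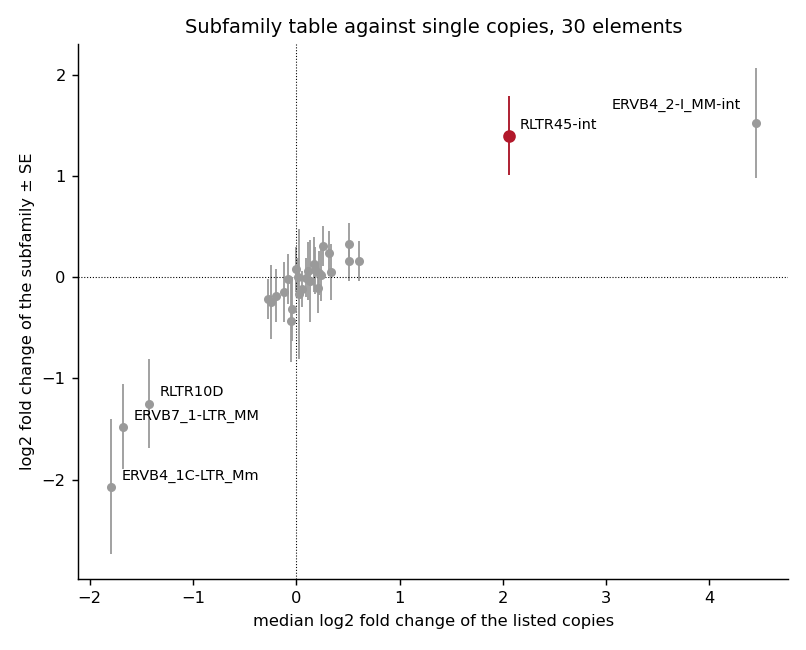
For the elements of the plot by element, the median log2 fold change of the listed copies (x axis) is set against the authors' log2 fold change of the whole subfamily with its standard error (y axis), both Dot1l KO over WT; red marks RLTR45-int, the subfamily past the threshold. RLTR45-int and ERVB4_2-I_MM-int lie at the upper right, RLTR10D, ERVB7_1-LTR_MM and ERVB4_1C-LTR_Mm at the lower left, and the others near 0.

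Signs of copies with neighbouring numbers were compared over all members. Of 175 pairs of copies of an element with numbers 1 apart, 66.3% had fold changes of the same sign, against 53.5% of 18677 pairs more than 10 apart, and the median difference in log2 fold change was 0.74 against 0.86. For 144 pairs 2 or 3 apart these values were 68.1% and 0.89. Distant pairs come mostly from elements with many copies, so these sets of pairs also differ in their elements. In none of the elements given next was the share of the same sign higher at 1 apart than at more than 10 apart. The median differences went both ways. In RLTR45-int 80% of 5 pairs 1 apart and 81.3% of 187 pairs more than 10 apart shared a sign, with median differences of 0.89 and 3.29. In MMERVK10C-int the shares were 50% of 8 and 56.0% of 1101 pairs, with 1.03 and 1.23. In ERVB7_1-LTR_MM they were 41.2% of 17 and 61.5% of 1435 pairs, with 3.18 and 1.73. At 2 or 3 apart, 88.9% of 9 RLTR45-int pairs and 75% of 8 MMERVK10C-int pairs shared a sign. Both shares were higher than those at more than 10 apart. In ERVB7_1-LTR_MM the share at 2 or 3 apart was lower than that, at 50% of 4 pairs. Of the 15 higher copies, 10 had another higher copy within 3 numbers, against 0 of the 3 lower. Pairs share copies and possibly reads, so no test was made.

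The ERVK elements left out by the rule had other counts in the authors' deposited table. Of 348 intracisternal A particle copies 2 were higher and 0 lower (0.575% called; 15 and 23 before adjustment), with a median of -0.32. Of 393 early transposon and RLTR13 copies with a p, 39 were lower and 1 higher (10.2% called), and the median over all 399 was -0.74. The share called was 0.993% of the members and 1.11% over all copies. Whether these shares differ from those of the members was not tested.

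Genes of ERVK silencing were followed as a list of 39, of which 38 are in the authors' deposited table of genes. There 3 rose and 1 fell, 10.5% in all, beside 6.58% of all genes (5.34% higher and 1.25% lower). At an unadjusted p under 0.05 the counts were also 3 and 1, beside 10.6% and 5.55% of all genes, and the median log2 fold change was 0.03, beside -0.02 over all genes. Mael, a piRNA pathway gene of the germline (chromosome 1, 166201201 to 166238747, GRCm38), rose from 159.0 in WT to 1264 in KO, a log2 fold change of 2.99 ± 0.42 (adjusted p = 4.52e-10). Tex19.1, a germline gene that restrains retrotransposons (chromosome 11, 121146143 to 121148319), rose by 1.20 ± 0.39 on the log2 scale (adjusted p = 0.0372). Dnmt3a, a de novo DNA methyltransferase (chromosome 12, 3806007 to 3914443), rose by 0.85 ± 0.24 (adjusted p = 0.00822). Chaf1b, a subunit of the CAF-1 histone chaperone (chromosome 16, 93883901 to 93906115), had -0.93 ± 0.26 (adjusted p = 0.0105), a call that is lost after centring within bins of mean count (0.0834). The 2 germline genes among these do not belong to the KRAB zinc finger pathway.

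In the authors' deposited table Trim28, Setdb1 and the zinc finger genes of the list did not pass the threshold. Trim28 had -0.08 ± 0.35 (SE; 95% interval -0.77 to 0.62) and Setdb1 had -0.13 ± 0.25 (-0.62 to 0.37). The KRAB zinc finger genes Gm15446 and Zfp932 had 0.12 ± 0.35 (-0.57 to 0.81) and 0.05 ± 0.33 (-0.61 to 0.70). Outside that pathway, Trim33 had 0.09 ± 0.32 (-0.54 to 0.73) and Dnmt1, the maintenance DNA methyltransferase, had -0.03 ± 0.25 (-0.53 to 0.47). These intervals bound the size of a change in RNA level and do not show that there was none.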

How the data were processed

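Total RNA of 3 Dot1l KO and 3 WT samples was sequenced; per the submitters' processing notes, HISAT2 2.1.0, featureCounts 2.0.0 and DESeq2 were used with the mm10 genome, while these sources do not give the DESeq2 version, the strand setting or the treatment of reads that map to several places. The 3 deposited tables hold the authors' DESeq2 comparison. The signal is a mean normalized count over all libraries, per the file headers. The same headers name a log2 fold change and its standard error, a Wald statistic as score, and a p-value with its adjusted value, all as the authors computed them. The score was checked to equal the fold change over its error, and the Benjamini-Hochberg adjustment was recomputed with equal results.

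A fit of counts per sample had been planned; since the tables hold none, all calls are the authors' DESeq2 Wald tests at an adjusted p under 0.05, over the whole table. Depth per library is thus unknown. Levels per genotype were computed from mean and fold change, and an implied level under 0.25 was read as no reads. Intervals of read ratios are exact Clopper-Pearson intervals of 95%, for counting error only. For these ratios the implied level over the 3 libraries of a group was rounded to whole reads. A ratio can therefore differ from the authors' fold change of the same copy. Python 3.11.15, pandas 2.3.3, numpy 2.4.6, scipy 1.17.1 and matplotlib 3.10.9 were used. Only centring, the Wald p and its adjustment were tried on simulated fold changes. Implied levels, bounds, read ratios and runs were not part of that trial. Gene coordinates are those of GENCODE M21 (GRCm38), matched by symbol.

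Copies named by rule were the 10 largest rises and falls that passed the threshold at a mean count of 20 or more, and the copy with the smallest p and that with the highest mean of each element with at least 20 copies with a p. Other copies were named after their values were seen. Members, element groups and gene lists were chosen with earlier results of these data known.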

Additional observations from a re-analysis of the deposited data

How the results depend on the processing

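The called copies (18; 15 higher, 3 lower) became 1 (0 and 1) among copies with a mean count of at least 50, 3 (2 and 1) with Bonferroni adjustment and 121 (73 and 48) without adjustment. Between 13 and 19 copies were called at an adjusted p under 0.01, with a log2 fold change of at least 1 and under both centrings; all 18 are among the 19 after centring within bins of mean count. In those first 3 settings the 5 element groups with a call became 1, 2 and 14, the 13 internal copies became 0, 2 and 45 (8 at 0.01), and the 5 LTR copies became 1, 1 and 76. The 8 RLTR45-int copies became 0 at a mean of at least 50 and 1 with Bonferroni. The 1 subfamily became 0 at 0.01, 0 with Bonferroni and 11 unadjusted. The 4 silencing genes became 2 at 0.01, 2 with a log2 fold change of at least 1 and 1 with Bonferroni. The median of 0.11 became -0.29 at a mean of at least 50 and -0.42 for summed levels, but 0.090 and 0.11 with the centrings and 0.071 with each element taken once. Small values changed sign. Centring within bins gave RLTR20A4_dup5142 0.062, RLTR40_dup1518 0.13, RMER17C_dup1016 0.16, the subfamilies MLTR11B 0.0056 and RMER4B 0.016, and the genes Dot1l 0.012, Trim28 0.12, Setdb1 0.047 and Dnmt1 0.17. Centring on the table median gave the subfamilies MLTR11B 0.045, MMERVK9E_I-int 0.015 and RLTR20A4 0.029. No paired analysis was possible because the tables hold no values per sample; leaving out each replicate was not run for the same reason. The low counts of single copies, with a median mean count of 8.67, limit their precision.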
